A study of Mus musculus with 6 samples.

Results

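Conventional natural killer (cNK) cells of the naive mouse kidney are described here by the abundance of their own transcripts. The population comprised 3 RNA sequencing libraries of 6 in all, taken by the label of the sort gate and not by any measured value. The cells came from wild-type C57BL/6 mice without disease and were sorted as CD49b high NK1.1+NKp46+CD3- leukocytes. The other 3 libraries held type 1 innate lymphoid cells (ILC1) of the same strain, genotype and tissue, sorted as CD49a+ cells with low or intermediate CD49b that were also NK1.1+NKp46+CD3-. Both populations passed through kidney digestion, a Percoll gradient, lysis of erythrocytes and enrichment with CD45 beads before the sort. Each library is labelled as a pool, numbered 1 to 3. The age and sex of the mice, the number of mice per pool and whether pools came from separate animals are unstated in the labels, so the spread between libraries may be partly technical.

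Natural killer cells are innate lymphocytes that kill infected or transformed cells without prior sensitisation. They carry perforin and granzymes in preformed granules, and their activity is set by the balance of activating receptors, which signal through adaptors with tyrosine motifs, and inhibitory receptors, many of which bind MHC class I. Their development and survival depend on interleukin 15, which signals through the interleukin 2 receptor beta chain, and the T-box factors T-bet and Eomes direct their maturation.

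Among secreted factors, the effector genes Gzma, Ccl5, Gzmb and Prf1 took the largest shares of reads, and the promoters of 3 of them are shown to give the sequence at the start of the genes on which the profile turns. They are 300 bases each, from 250 bases before to 50 after the gene start, taken from RefSeq on GRCm38.p6 and written 5′ to 3′ on the gene's strand. Ccl5 was not printed. Capitals mark a match to the Runx motif TGTGGTT on either strand. Gzma lies on the minus strand at chr13:113100932-113101231, Gzmb on the minus strand at chr14:56262285-56262584 and Prf1 on the plus strand at chr10:61297586-61297885.
Gzma: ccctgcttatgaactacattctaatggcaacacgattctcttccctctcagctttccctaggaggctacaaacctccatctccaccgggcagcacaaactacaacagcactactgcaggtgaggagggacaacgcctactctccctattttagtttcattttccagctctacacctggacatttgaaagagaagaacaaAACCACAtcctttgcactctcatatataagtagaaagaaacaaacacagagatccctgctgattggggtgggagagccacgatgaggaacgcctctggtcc
Gzmb: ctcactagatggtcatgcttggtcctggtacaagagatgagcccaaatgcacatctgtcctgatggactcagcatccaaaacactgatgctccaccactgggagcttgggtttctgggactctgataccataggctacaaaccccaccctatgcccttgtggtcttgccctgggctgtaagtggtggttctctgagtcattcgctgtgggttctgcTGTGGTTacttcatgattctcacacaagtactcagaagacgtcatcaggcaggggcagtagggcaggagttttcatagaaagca
Prf1: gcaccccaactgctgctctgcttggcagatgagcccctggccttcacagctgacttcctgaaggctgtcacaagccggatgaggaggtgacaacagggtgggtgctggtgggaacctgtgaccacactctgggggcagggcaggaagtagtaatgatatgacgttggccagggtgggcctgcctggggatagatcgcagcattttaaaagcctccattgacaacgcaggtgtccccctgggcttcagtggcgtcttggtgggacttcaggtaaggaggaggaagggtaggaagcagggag

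The promoters of Gzma and Gzmb held 1 Runx match each and that of Prf1 held none. Of 32851 mouse promoters of this length, 5.27% held the Runx motif, and 4 of the 24 promoters found for the leading genes described below did, those of Gzma, Gzmb, Klrk1 and Spp1. The T-box motif AGGTGTNA, searched on both strands as well, was present in 3.03% of all promoters and in 0 of these 24. The 24 promoters belong to 20 of 30 leading genes. The promoters shown were chosen after the matches had been seen: those of Irf8, the leading transcription factor gene, were looked at first, and its 2 promoters held neither motif. A match describes the letters in the window and no binding was measured.

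The libraries of pools 1, 2 and 3 held 27438848, 26315110 and 24899746 counts, and a single count equalled 0.0364 to 0.0402 CPM. CPM is a gene's count after the gene counts of its library are scaled to a sum of 1000000. Genes were ranked by mean CPM among 17803 genes, after leaving out 23 mitochondrial genes (mt-) and 6015 predicted gene models (Gm followed by digits). The genes left out held 6.52% of the counts in pool 1, 22.2% in pool 2 and 17.8% in pool 3, with mitochondrial genes alone at 3.15, 12.7 and 10.3%. Pool 1 stood apart from the other pools in these shares, and the CPM of the remaining genes was on the whole higher there. The median log2 ratio of pool 1 to pool 2 was 0.46 over genes at a mean of 10 CPM or more.

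Levels of the defining genes of cNK cells are given as a description. These markers were chosen with earlier results of the data known, so they do not test the label. Gzma, which encodes granzyme A, stood at 9298, 9949 and 9080 CPM in pools 1 to 3 (rank 4), and Klra4, which encodes the receptor Ly49D, at 788, 772 and 756 CPM (rank 126). Both varied little between pools. Eomes, a T-box factor of mature NK cells, stood at 450, 238 and 320 CPM (rank 357) and S1pr5, a sphingosine-1-phosphate receptor used for exit from tissue, at 495, 220 and 262 CPM (rank 369). Itga2 encodes CD49b, on which the cells were sorted, and stood at 163, 63.7 and 79.5 CPM (rank 1551). Pool 1 was the highest of the 3 libraries for Eomes, S1pr5 and Itga2. Of the other genes of the gate, Ptprc (CD45), Ncr1 (NKp46) and Klrb1c (NK1.1) averaged 2213 ± 807, 1198 ± 250 and 955 ± 288 CPM (mean ± SD, n = 3), and the CD3 genes Cd3d, Cd3e and Cd3g averaged 9.53 ± 2.56, 1.16 ± 0.989 and 9.65 ± 1.74 CPM.

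Genes that define ILC1, also chosen with earlier results known, were low in the cNK libraries. The 7 listed, Itga1, Cxcr6, Zfp683, Tnfsf10, Il7r, Inpp4b and Cd200r1, had mean levels from 1.13 CPM for Zfp683, which encodes the factor Hobit, to 16.4 CPM for the chemokine receptor gene Cxcr6. Their summed level was between 52.1 and 64.8 CPM in the cNK libraries and between 2186 and 3067 CPM in the ILC1 libraries, without overlap. The gate separates the populations by CD49a and CD49b, so a difference in Itga1 and Itga2 was set by the sort.

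Reads were concentrated in few genes. The 100 genes of highest CPM in each library held 27.1, 24.3 and 24.6% of its counts and the 10 highest held 9.84, 9.33 and 9.15%. A level of 100 CPM or more was reached in all 3 libraries by 1201 genes, or 6.75% of those ranked, while 5492 genes averaged below 1 CPM. Of the 100 highest genes of a library, 80 were among the 100 highest of every library. The Spearman correlation of CPM over the 17803 genes was 0.963 between pools 1 and 2, 0.973 between pools 1 and 3 and 0.984 between pools 2 and 3, as a description across genes, which are not independent replicates. Of the 100 highest genes of cNK, 74 were also among the 100 highest of ILC1, so most of the top of the profile was common to both sorted populations. Without pool 1, 94 of the 100 highest genes, all 10 leading receptors, all 10 leading transcription factors and 9 of 10 leading secreted factors remained, and 1298 genes reached 100 CPM in both other libraries.

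**Figure D1:**
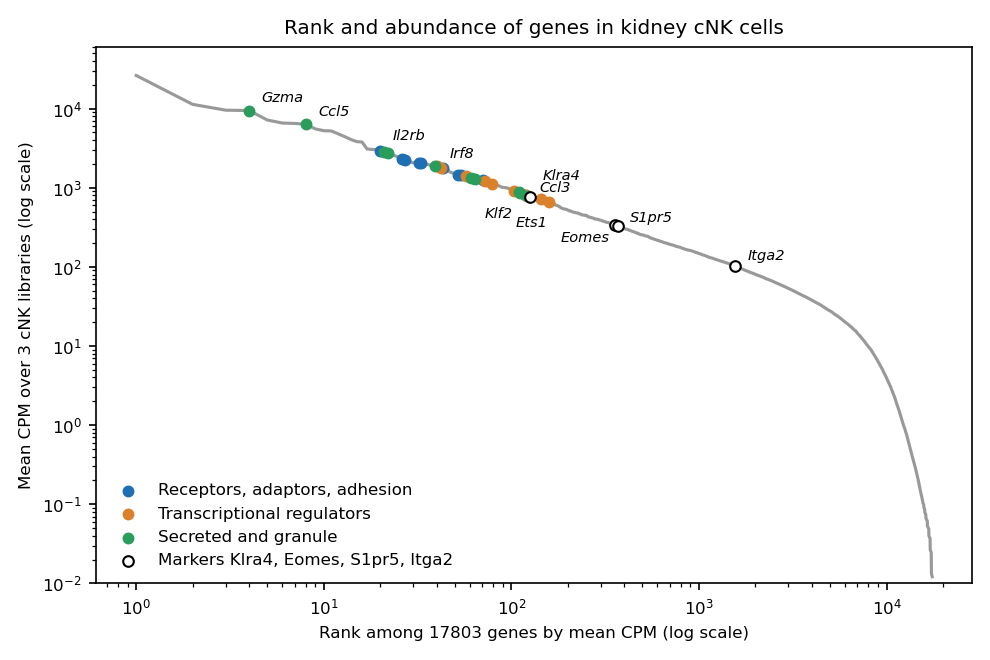
Mean CPM of the 3 cNK libraries (vertical axis, log scale) against rank (horizontal axis, log scale) for the ranked genes, with marked genes labelled. The curve falls steeply after the first ranks: Actb leads at 26189 CPM, and Gzma at rank 4 and Ccl5 at rank 8 stand among housekeeping genes.

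The 20 highest genes mixed structural, stress and effector genes. The cytoskeletal genes Actb (26189 ± 1591 CPM), Tmsb4x, Actg1 and Pfn1 and the ubiquitin gene Ubb were among them, together with the MHC class I genes H2-D1, H2-K1 and B2m. The heat shock genes Hspa1b (6485 ± 1695 CPM), Hspa1a and Hspa8 were there too. Effector and receptor genes of lymphocytes in this group were Gzma, Ccl5, Nkg7, which encodes a membrane protein of cytotoxic granules (5255 ± 50.01 CPM, rank 10), and Il2rb. The lysosomal membrane gene Laptm5 and AW112010 completed the named genes except for Klk1, which encodes a kallikrein made in kidney tubules. Klk1 stood at 2943, 5322 and 3213 CPM (rank 15), and rank 17 was held by a ribosomal RNA entry with no symbol. Of 20 immediate early and dissociation-related genes, 18 (90.0%) reached 100 CPM in every cNK library, beside 6.75% of all ranked genes. The set held between 2.13 and 2.80% of the counts in cNK and between 3.78 and 3.99% in ILC1. The part of tissue digestion in these levels was not tested.

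Several of these rows share sequence with other genes. Stretches of 100 bases that also occur in another gene made up 56.5% of those of Hspa1a and 49.9% of Hspa1b, mostly in common with each other, and 43.6% of Ubb, 29.9% of Actg1 and 28.5% of Hspa8. How reads that match several genes were counted is not given in the sources, so the ranks of these 5 genes are uncertain.

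Receptors and signalling adaptors were led, as shares of reads, by Il2rb. It encodes the chain shared by the interleukin 2 and interleukin 15 receptors and stood at 4002, 2272 and 2556 CPM (rank 20, GRCm38 chromosome 15, 78479256 to 78495271). Next came Selplg, the selectin ligand PSGL-1 (2287 ± 606 CPM), Ptprc, and Fcer1g, an adaptor with a tyrosine activation motif, at 2011, 2028 and 2116 CPM. Ifngr1, a chain of the interferon gamma receptor, averaged 2049 ± 510 CPM, and Tyrobp, which encodes the adaptor DAP12, stood at 1631, 1884 and 1866 CPM. The integrin beta 2 chain Itgb2 (1465 ± 652 CPM), the tetraspanin Cd53 (1430 ± 183 CPM) and Klrk1, which encodes the activating receptor NKG2D (1239 ± 263 CPM), were also among the 10. For Il2rb, Selplg, Ptprc, Ifngr1, Itgb2 and Klrk1, as for Cd53, pool 1 was the highest library, whereas the adaptors Fcer1g and Tyrobp were lowest in pool 1.

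**Figure D2:**
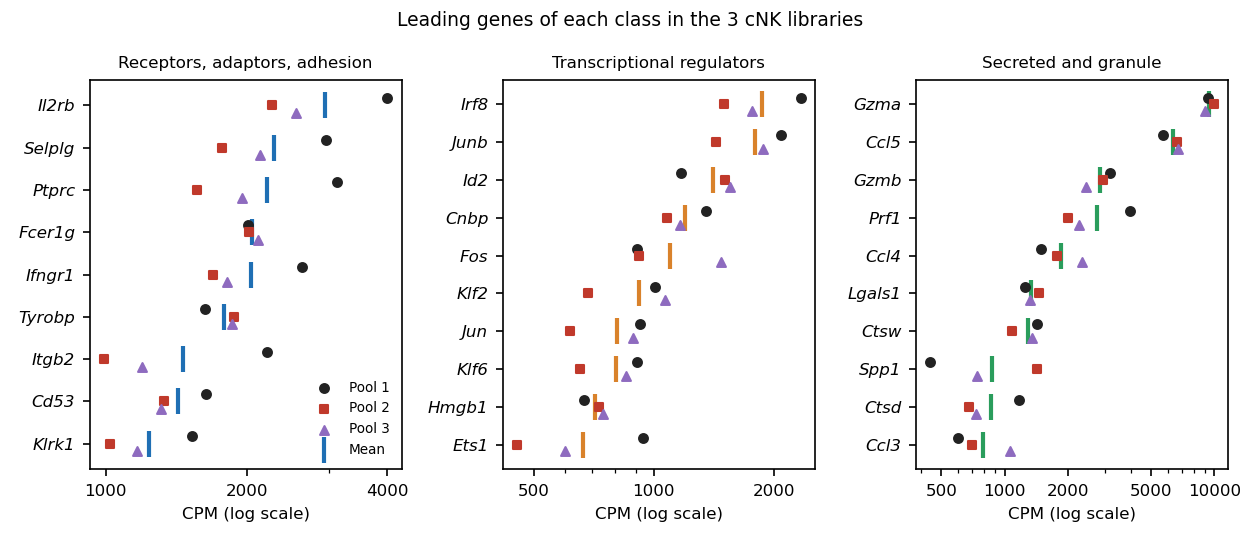
CPM (horizontal axes, log scale) of leading receptor, transcription factor and secreted-factor genes in each of the 3 cNK libraries, with the mean marked. Gzma and Ccl5 stand well above the other secreted factors in every library, whereas neighbouring receptor and transcription factor genes overlap between libraries.

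A long transcript yields more reads than a short one at equal abundance, so levels of different genes were also compared per length. Counts were divided by the exon length of the gene and scaled to a sum of 1000000 over the ranked genes. On this length-scaled level Tyrobp (8222 ± 701) and Fcer1g (7175 ± 235) stood first and second of the receptor class, above Cd53 (2507 ± 302), Ncr1 (2375 ± 479), Ifngr1 (2197 ± 531) and Il2rb (2095 ± 645). The lowest library of each adaptor was above the highest library of Cd53, while the levels of Cd53, Ncr1, Ifngr1 and Il2rb overlapped. Of the 10 leading receptor genes by CPM, 6 remained among the 10 highest by length-scaled level. Ptprc moved from place 3 of its class by CPM to place 36. The exons of all its transcripts together span 18313 bases and its principal transcript 4702, and with the principal lengths of all genes Ptprc was at place 19 and a level of 976 in place of 369. With exon lengths, Klra4 and Klra9 entered the leading 10 at 1895 ± 27.2 and 1620 ± 140, but with principal lengths they were at places 12 and 15. Tyrobp and Fcer1g stayed first and second with principal lengths. Selplg and Klrk1 came next at 2557 and 2024, and Cd53 and Ncr1 were at places 7 and 8. Klrk1 was at place 26 with exon lengths, so the order below the 2 adaptors depended on the length used.

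**Figure D3:**
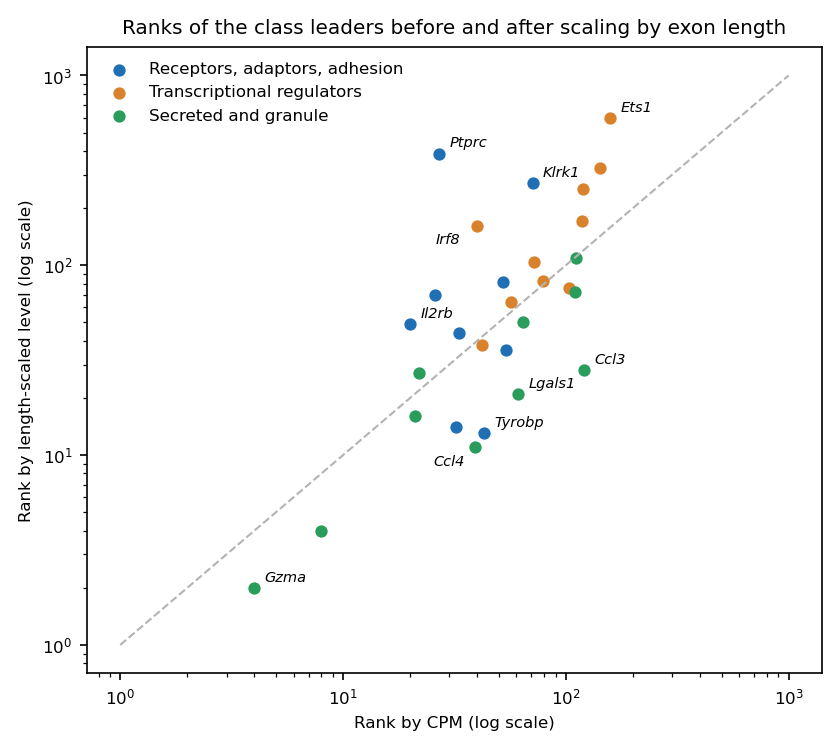
Rank by length-scaled level against rank by CPM for leading genes of the receptor, transcription factor and secreted classes in cNK (both axes on a log scale, with rank 1 as the highest). Short transcripts such as Tyrobp, Fcer1g and Ccl4 rank higher once length is accounted for, while Ptprc falls from rank 27 to rank 387 (rank 138 with principal-transcript lengths, which are not plotted).

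Within the receptor class, families differed in how many members were abundant. The 4 adaptors with activation motifs or the related DAP10 (Fcer1g, Tyrobp, Hcst and Cd247) all reached 100 CPM in every library. Of 16 lectin-like receptors of the NKG2 and Nkrp1 type, 11 did, among them Klrk1, Klrb1c and Klre1, at 751 ± 58.4 CPM. Of 47 receptors of the immunoglobulin type, 9 did, led by Ncr1, by Cd47, the ligand of an inhibitory phagocyte receptor (720 ± 73.0 CPM), and by the adhesion receptor gene Cd2 (508 ± 30.3 CPM). Of 45 integrins and adhesion receptors, 16 did. Of 102 other receptors, mostly G protein-coupled, 3 (2.94%) did and 55 (53.9%) averaged below 1 CPM. Of all 348 ranked genes of the receptor class, 57 (16.4%) reached 100 CPM in every library. Over all ranked genes the share was 6.75%, and 30.8% averaged below 1 CPM.

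The Ly49 receptors, encoded by Klra genes and many of them specific for MHC class I, had 11 members in the ranking. Klra4, Klra9 and Klra8 averaged 772 ± 15.9, 678 ± 62.0 and 575 ± 6.19 CPM. Klra7 and Klra3 averaged 452 ± 18.7 and 277 ± 19.5 CPM and were named after their values were seen, as were Klra1 and Klra14-ps. Klra4, Klra9, Klra8, Klra7 and Klra3, 5 of 11 (45.5%), reached 100 CPM in every library, beside 6.75% of all ranked genes. Klra1 came close at 96.6 ± 3.65 CPM, whereas Klra6, Klra5, Klra10, Klra17 and Klra2 averaged between 0.539 and 11.6 CPM. The summed level of the family was 2965, 2785 and 2894 CPM in pools 1 to 3, a narrow range. The genes resemble each other: 14.4% of the 100-base stretches of Klra8 occur elsewhere, mostly in the pseudogene Klra14-ps, which itself drew 199 ± 22.1 CPM, and 4.07% of those of Klra9 do.

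Receptors for soluble signals were counted by family. Of 52 cytokine receptor genes, 4 reached 100 CPM in every library, namely Il2rb, Ifngr1, Il18rap, a chain of the interleukin 18 receptor (462 ± 221 CPM), and the common gamma chain gene Il2rg (402 ± 107 CPM, named after its value was seen). This is 7.69% of the family, beside 6.75% of all ranked genes. Of 38 chemoattractant receptor genes, 3 (7.89%) did, among them S1pr5 and Ccr2, which encodes a chemokine receptor of circulating leukocytes, at 340 ± 82.0 CPM. Of 22 TNF receptor genes, 2 (9.09%) did, Tnfrsf1b (477 ± 261 CPM) and Tnfrsf9, the costimulatory receptor 4-1BB (326 ± 74.4 CPM). These 3 shares lie near that of all ranked genes. None of 12 Toll-like receptor genes reached 100 CPM in every library, which for so few genes is also near that share. Of these 12, 7 (58.3%) averaged below 1 CPM, beside 30.8% of all ranked genes. The highest, Tlr4, the receptor for lipopolysaccharide, averaged 10.5 ± 5.64 CPM.

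Transcription factor genes were led by Irf8 as a share of reads. Irf8, an interferon regulatory factor also needed for myeloid development, stood at 2332, 1501 and 1766 CPM (rank 40, GRCm38 chromosome 8, 120736358 to 120756694). The AP-1 member Junb stood at 2082, 1432 and 1876 CPM and Id2, an inhibitor of E proteins that innate lymphocytes require, at 1169, 1505 and 1551 CPM. Irf8 was highest in pool 1 and Id2 lowest there. The nucleic acid-binding protein gene Cnbp, Fos, Klf2, a regulator of lymphocyte trafficking, Jun, Klf6, Hmgb1 and Ets1, a factor of NK development, followed with means from 1199 down to 664 CPM, and neighbours in this order overlapped between libraries. Of the stretches of Hmgb1, 18.1% occur in other genes. On the length-scaled level the order was Junb (2385 ± 431), Id2 (1766 ± 273), Klf2 (1522 ± 340) and Fos (1431 ± 431), and Irf8 was at 808 ± 178, place 6 of the class. With principal-transcript lengths, 2847 bases for Irf8 in place of 7055, it was at 1360 and place 3.

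The T-box factors that direct NK maturation ranked below these genes as shares of reads. Tbx21, which encodes T-bet, stood at 770, 337 and 415 CPM (rank 206), with pool 1 the highest. Eomes, described above, followed at a mean of 336 ± 107 CPM. On the length-scaled level Tbx21 was at 622 ± 278 and Eomes at 247 ± 76.9. Prdm1, which encodes the repressor Blimp-1, averaged 57.5 ± 25.1 CPM, and Zfp683 stood at 1.13, 0.760 and 1.49 CPM. Of 298 transcription factor genes, 41 (13.8%) reached 100 CPM in every library, beside 6.75% of all ranked genes. Of the same 298, 30 (10.1%) averaged below 1 CPM, beside 30.8% of all ranked genes. Among those outside the leading 10 were Nr4a1, an immediate early nuclear receptor (593 ± 221 CPM), Bhlhe40 (487 ± 93.9 CPM), Stat3, a transducer of cytokine signals (369 ± 127 CPM), Nfatc1 (344 ± 162 CPM) and Nfil3, a factor required for NK development (166 ± 27.8 CPM).

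Among secreted factors, Gzma (GRCm38 chromosome 13, 113093825 to 113100981) and Ccl5, a chemokine for T cells and monocytes, were highest by CPM and by length-scaled level, where they stood at 28685 ± 1419 and 20247 ± 1891. Ccl5 stood at 5722, 6634 and 6717 CPM. The granzyme gene Gzmb stood at 3185, 2939 and 2440 CPM. Prf1, which encodes perforin, stood at 3985, 2002 and 2253 CPM. Gzmb and Prf1 were both highest in pool 1. The ratio of the highest to the lowest library was 1.31 for Gzmb and 1.99 for Prf1.

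Ccl4, a chemokine for monocytes and lymphocytes, averaged 1868 ± 423 CPM, and on the length-scaled level (8656 ± 2008) it stood at place 3 of the class, above Gzmb at 6072 ± 773. The galectin gene Lgals1 (1339 ± 104 CPM), the cathepsin gene Ctsw of cytotoxic lymphocytes (1290 ± 180 CPM), Spp1, Ctsd and Ccl3 followed. Spp1, which encodes osteopontin and is also made by kidney tubules, stood at 442, 1431 and 742 CPM, so its highest library was pool 2, in which kidney genes were also high. Of the stretches of Ctsd, 30.2% occur in the gene model Gm49369.

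Secreted factors were also counted by family, beside 6.75% of all ranked genes at 100 CPM in every library and 30.8% below 1 CPM. Of 34 chemokine genes, 4 reached 100 CPM in every library (Ccl5, Ccl4, Ccl3 and Xcl1, the last at 171 ± 57.3 CPM and named after its value was seen), a share of 11.8%, and 20 (58.8%) averaged below 1 CPM. Of 79 cytokine and growth factor genes, 6 (7.59%) reached it and 25 (31.6%) averaged below 1 CPM, shares near those of all ranked genes. Ifng, which encodes interferon gamma, was one of these at 134, 152 and 207 CPM and was also named after its value was seen. Of the 5 granzyme genes, Gzma and Gzmb reached it and Gzmm averaged 17.6 ± 2.67 CPM. Of 15 membrane-bound TNF ligands, 1 (6.67%) did, Fasl, the ligand of the death receptor Fas, at 374 ± 104 CPM.

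Lists of cellular machinery were described in the same way, beside 6.75% of all ranked genes at 100 CPM in every library. Of 19 genes of lytic granules and their exocytosis, 13 (68.4%) reached it. Together the 19 held 2.77, 2.48 and 2.40% of the counts. Of 24 actin cytoskeleton genes, 21 (87.5%) did, and the list held 6.69, 5.90 and 6.05% of the counts. Of 86 cytosolic ribosomal protein genes, 60 (69.8%) did, among them Rplp0 at 849 ± 103 CPM. Their summed share was lowest in pool 1, at 1.80% against 2.5999 and 2.71% in pools 2 and 3. The part of transcript length in this difference was not tested. Of 12 genes of tissue exit and recirculation, 5 (41.7%) reached 100 CPM, among them Klf2, S1pr5 and Itgb7, an integrin chain of lymphocyte homing (546 ± 235 CPM). Of 16 cell cycle genes 3 (18.8%) did, Mcm6, Pcna and Stmn1, at 191 ± 65.4, 162 ± 10.2 and 146 ± 32.8 CPM.

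Pools differed in a way that followed transcript length, a comparison added after the values were seen. Over 7966 genes at a mean of 10 CPM or more, the median log2 ratio of pool 1 to the mean of the other pools was -0.52 for the 230 genes with less than 1 kb of exons and 0.57 for the 1458 genes with 8 kb or more. In pool 2 the same medians were 0.30 and -0.60, and pool 3 lay between. The Spearman correlation of the ratio with exon length was 0.457 in pool 1, -0.507 in pool 2 and -0.200 in pool 3, across genes that share 3 libraries. RNA quality was not among the values given, and its part was not tested.

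**Figure D4:**
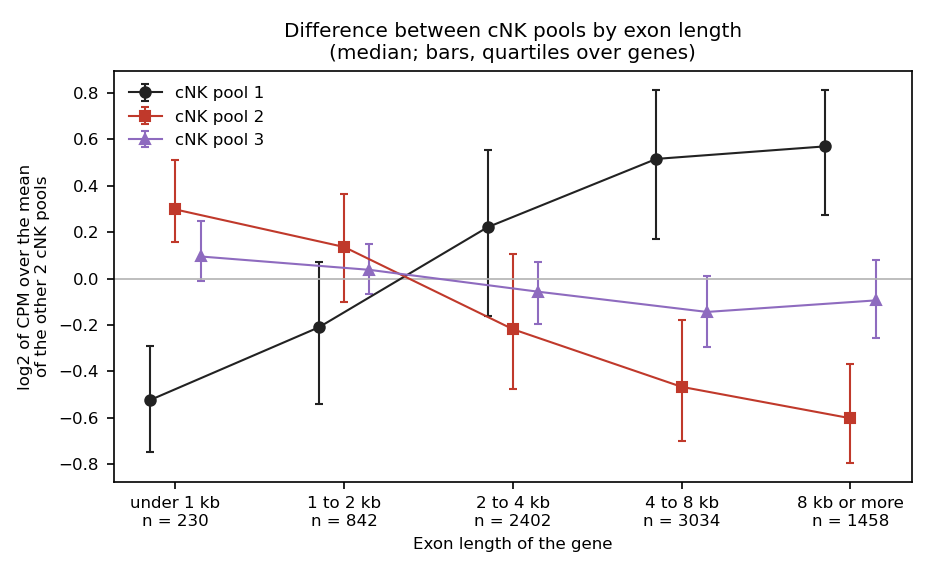
Median log2 ratio of each cNK library to the mean of the other libraries (vertical axis) for genes grouped by exon length in kb (horizontal axis), with quartiles. Pool 1 rises from -0.52 to 0.57 with length, pool 2 falls from 0.30 to -0.60, and pool 3 changes little.

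Genes of other cell types were measured in every library. The 21 kidney epithelium markers in the ranking held 0.143, 0.505 and 0.422% of the counts of pools 1 to 3. In the ILC1 libraries they held 0.0971, 0.0473 and 0.391%. Of the 21, 4 (19.0%) reached 100 CPM in every cNK library, beside 6.75% of all ranked genes. Among the 4 were Umod at 668 ± 241 CPM and Fxyd2 at 655 ± 401 CPM. Klk1 is not in this list, so these shares leave it out: the list summed to 1434, 5050 and 4220 CPM, and Klk1 alone stood at 2943, 5322 and 3213 CPM. The 10 genes with the widest range between pools at a mean of 100 CPM or more included Kap, Cltrn, Miox, Aqp2, Wfdc15b, Acsm2, Cyp4b1, Slc34a1 and Pdzk1ip1, and all 10 were lowest in pool 1. Kap, an androgen-regulated gene of the proximal tubule, stood at 91.4, 563 and 833 CPM, and Aqp2, the water channel of the collecting duct, at 45.7, 377 and 112 CPM. Gpx3, a plasma glutathione peroxidase made in the kidney and named after its values were seen, stood at 465, 2576 and 2019 CPM. Pool 1 was thus the lowest cNK library for the marker list, Klk1 and Gpx3. The 10 genes were picked for their range between pools, so their common lowest pool is no separate support. Pool 1 was also low for short genes in general, as described above. Neither the part of length in these levels nor the part of kidney RNA in genes such as Spp1 was tested.

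Markers of other blood cells were lower. The 23 markers of macrophages, monocytes and dendritic cells held between 0.0807 and 0.112% of the counts in cNK and between 0.430 and 1.03% in ILC1, and Cd74 and H2-Ab1 averaged 245 ± 67.5 and 152 ± 49.7 CPM in cNK. B cell and plasma cell markers held between 0.0140 and 0.0202%, nearly all from Ighm (164 ± 29.7 CPM), and Ms4a1 averaged 0.439 CPM. T cell markers held between 0.0428 and 0.0496%, mostly from the receptor constant genes Trbc1 and Trbc2 (196 ± 16.7 and 152 ± 7.52 CPM), which are transcribed in NK cells as well and share 28.2 and 30.9% of their stretches with each other. Erythroid and platelet markers held 0.0390, 0.00680 and 0.00220%, highest in pool 1, and neutrophil markers held at most 0.00591%, highest in pool 3. In bulk libraries, fewer cells of a type and less RNA per cell cannot be told apart.

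**Figure D5:**
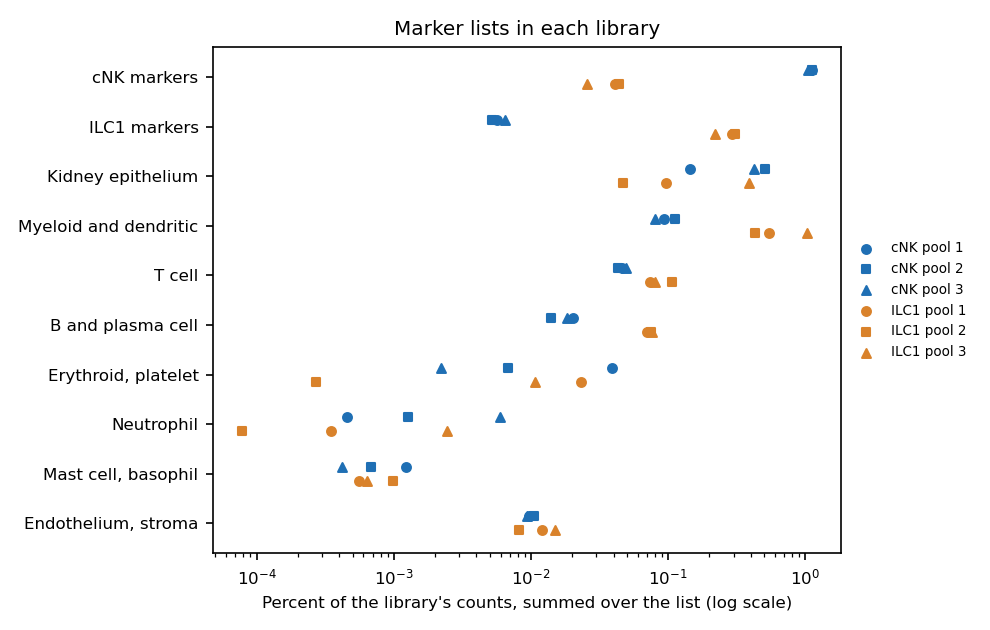
Percent of counts held by each marker list (log scale) in the 3 cNK and the 3 ILC1 libraries. The ILC1 list lies between 0.00521 and 0.00648% in cNK and between 0.219 and 0.307% in ILC1, the myeloid list is lower in all cNK libraries, and the kidney epithelium list spans 0.143 to 0.505% in cNK and overlaps with ILC1.

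The levels of the leading genes were set beside those of ILC1 as a description, since the genes were chosen by their level in cNK. Of 16144 genes tested with edgeR's quasi-likelihood test, 1.69% were called higher in cNK and 4.07% higher in ILC1 (5.76% in either direction) at a Benjamini-Hochberg adjusted p of 0.05. Of the 30 leading genes, 8 were called higher in cNK and 0 higher in ILC1, with 2 higher in ILC1 at an unadjusted p under 0.05. They were 1 of 10 receptors, 2 of 10 transcription factors (Irf8 and Klf2) and 5 of 10 secreted factors (Gzma, Ccl5, Gzmb, Prf1 and Lgals1). The median log2 ratio of cNK to ILC1 over each whole class of 10 was 0.50 over the leading receptors, -0.05 over the transcription factors and 1.87 over the secreted factors, against -0.01 over all genes tested. The log2 ratios of those named ran from 1.84 ± 0.21 (SE) for Klf2 to 5.09 ± 0.33 for Gzma, with edgeR adjusted p from 0.000596 to 0.00504. DESeq2's Wald test called Junb and Jun higher in ILC1.

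Ranks are given as well, and they rest on the same counts and the same choice of genes, so they are no separate support. Of the 30 leading genes, 22 were among the 200 highest of ILC1, with 9 receptors, 8 transcription factors and 5 secreted factors. Gzma was at rank 4 in cNK and rank 422 in ILC1, where it stood at 343, 399 and 228 CPM, and Lgals1 was at ranks 61 and 741. Il2rb, by contrast, was at rank 20 in cNK and rank 11 in ILC1, and Ncr1 at ranks 73 and 53.

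The ranked list of gene symbols that the authors deposited for the CD49b population followed the mean raw count. It has 2000 entries, 6 of them blank, and all 1994 symbols were among as many highest by mean raw count, with all 1993 neighbouring pairs in descending order. It includes 35 predicted gene models and 15 mitochondrial genes. By mean CPM, 1991 of the symbols were among as many highest.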

How the data were processed

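RNA was sequenced from 3 cNK and 3 ILC1 pools. The authors deposited whole-number counts of reads per gene, not normalized, and for each population a mean column, an averaged signal that equals the mean of its 3 count columns and was not used further. Per the submitters' processing notes, the tools were STAR 2.6.1, Trimmomatic 0.38, DESeq, DESeq2 1.30.0 and R 4.03, and the build was GRCm38. The counting program, annotation, use of strand and treatment of multiply matching reads were not stated there or in the labels, so genes with near-identical copies and overlapping genes are uncertain. The table lists 23841 genes, each with at least 5 counts over the 6 libraries, and 424 have no symbol.

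Counts were divided by the library total and scaled to 1000000 (CPM), and given per library or as mean ± SD. A length-scaled level used exon lengths of GENCODE M21 on GRCm38, which holds 23836 of the identifiers. It was first scaled over all genes, then over ranked genes, and last over ranked genes with at least 200 exon bases. The later versions were made because short mitochondrial genes, and then a very short RNA, had set the total or the top rank. The last is reported. Promoter sequences are from RefSeq on GRCm38.p6. Near-identical sequence was counted in 100-base stretches of GENCODE M21 transcripts.

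The comparison with ILC1 used edgeR 4.0.16 in R 4.3.3 on all 6 libraries (TMM, filterByExpr, robust quasi-likelihood fit on population alone, Benjamini-Hochberg at 0.05), with DESeq2 1.42.0 as an alternative, and was tested on simulated data. Named genes were the 20 highest, the 10 highest of each class, the 3 highest of each role and of each list of other cell types, the cNK, gate and ILC1 markers and the 10 genes of widest range between pools. Some genes that the rule names are left out of the text and plots. Some genes outside this rule are named and said to be so. The population, the marker genes, the gene lists and the rule were chosen with earlier results of these data known. Alternatives were other scalings, other sets of ranked genes, length scaling, order by median rank and leaving out each library. Principal-transcript lengths, the earlier versions of the length-scaled level, and leaving out kidney genes were added after seeing the data.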

Additional observations from a re-analysis of the deposited data

How the results depend on the processing

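Among the 30 leading genes, 8 were called higher in cNK, and the alternatives with all 6 libraries called 8 to 10 and those without 1 library 8 to 9. DESeq2's Wald test called 2 leading genes higher in ILC1 in place of 0. Over all tested genes it called 693 higher in cNK and 1153 higher in ILC1, against 273 and 657 with edgeR. With the replicate block the counts were 675 and 1107. Same-numbered pools of the 2 populations correlated at 0.526, -0.127 and 0.0588 in their deviations from the group means, and cNK pool 2 correlated best with ILC1 pool 3 (0.591). The Spearman correlation of the ratio of a pool to its group's other pools with exon length was 0.528, -0.438 and -0.305 in ILC1 pools 1 to 3, beside 0.457, -0.507 and -0.200 in cNK. The labels do not say whether same-numbered pools are linked, and whether they are is unknown. Leaving out 1 library gave between 93 and 672 genes higher in cNK, and between 214 and 695 higher in ILC1. For genes higher in cNK, the counts that moved most were 672 when ILC1 pool 3 was left out, 165 when ILC1 pool 2 was, 157 when cNK pool 2 was and 93 when cNK pool 3 was. For genes higher in ILC1 they were 432 when ILC1 pool 2 was left out, 388 when cNK pool 1 was, 336 when cNK pool 2 was and 214 when cNK pool 3 was. The cause was not tested.

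The share of counts held by the 100 highest genes was 25.3% on average, 30.04% with mitochondrial genes and predicted gene models left out of the total, and 37.6% with all symbols kept in the ranking, in both cases by construction. Of the 10 leading receptors, 6 remained with length scaling, also in both earlier versions of the length-scaled level, and 7 with principal-transcript lengths. The earlier versions, chosen against after the values were seen, kept 8 transcription factors and 9 secreted factors, as did the version reported. Leaving out 1 library kept all 10 leading receptors and transcription factors and 9 of the secreted factors. The number of genes at 100 CPM in every cNK library was between 1196 and 1507 under the other alternatives. With 3 libraries and a depth at which 1 count is worth between 0.0364 and 0.0402 CPM, order among genes below 1 CPM rests on few counts.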
